A study of Homo sapiens with 9 samples.

Results

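The mitosis and spindle genes are 39 genes whose products carry a cell from entry into mitosis to the separation of its daughters. They were chosen by name, as the probe sets whose platform annotation gives a listed gene and no other. All 39 were represented, by 80 of 54613 probe sets, among 19775 named genes in all. A probe set is a group of short probes whose signals are combined into 1 value, and 23 of the genes had more than 1 probe set. Unless a sentence says otherwise, a value is that of a gene's brightest probe set over all arrays, on the log2 scale, where a difference of 1 is a factor of 2. The signals of different probe sets do not rank transcripts by amount, so each difference between groups is taken within a probe set. Across probe sets, signal served to choose the brightest, to set genes against a median and to mark bright genes.

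Transcripts were measured on 9 single-colour arrays of HuCCT1, an established cell line from a human cholangiocarcinoma, a cancer of the bile ducts. Cells received either an empty vector (4 arrays) or a vector for YAPS127A (5 arrays), a form of the transcriptional co-activator YAP1 that stays active because a serine phosphorylated by the LATS kinases is replaced by alanine. Whether they were transient transfectants, pools or clones was not stated in the labels. The labels number the samples within a group and do not say that they were separate cultures. All p-values hence describe how these samples scatter, which can be purely technical, and precision is limited by how many arrays there are.

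Mitosis genes are transcribed late in the cell cycle, so their transcripts are abundant in dividing cultures and scarce in resting ones. Many of their promoters carry a cell cycle homology region, bound by the MuvB complex, beside CCAAT boxes, bound by NF-Y. In G1 the MuvB complex is held in the repressing DREAM complex, and later it works with B-MYB and FOXM1 as an activator. YAP, acting through TEAD factors at distant enhancers, is known to promote the transcription of mitotic genes in several cell types. RNA of a mixed culture cannot tell a smaller share of cells in G2 and mitosis from less transcript in each such cell.

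The array medians lay between 5.95 and 5.97, and the brightest probe set of all 39 genes lay above the median of all probe sets. TOP2A and CENPF, which mark cycling cells, had mean log2 signals of 13.08 and 11.43 with the empty vector. The 5 epithelial markers (KRT7, KRT8, KRT18, KRT19 and EPCAM) read from 12.8 to 14.4 over all arrays, and KRT8 rose by 0.30 (SE 0.07, adjusted p = 0.00741). Of 15 markers of fibroblasts, leukocytes, endothelium and hepatocytes, 4 were above the median of all probe sets. Of the 6 fibroblast genes LUM rose by 1.45 and COL1A1 fell by 0.70, while DCN, COL1A2, COL3A1 and PDGFRB stayed below that median. Of the 3 leukocyte genes, all below it, CD14 fell by 0.45. The part of these in the results below was not tested. YAP1 did not pass at any of its 3 probe sets (brightest +0.15, SE 0.06, adjusted p = 0.121), while its target genes ANKRD1 and CCN1 rose by 2.24 and 0.45 and CCN2 did not pass (+0.22, adjusted p = 0.107). The gap between the 3' and 5' control probe sets of actin, a sign of RNA quality, ranged from 0.985 to 1.69 with the empty vector and from 0.888 to 1.58 with YAPS127A.

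The promoters of these genes are shown first, because many but not all of them carry the same short elements. RefSeq (GRCh38.p14) promoter windows, from 250 bases before to 50 bases after a transcript start, were found for 34 of the 39 genes, 44 windows in all. The letters TTTGAA of the cell cycle homology region, read on both strands, occurred in 61.4% of these windows and in 15.2% of all 35116 windows of the same length. The CCAAT box occurred in 79.5% against 34.6%. Both stood together in 54.5% against 5.90%. The TEAD letters GGAATG occurred in 13.6% against 14.0%. These are matches of exact letters in a short window, and windows of 1 gene can overlap. Other forms of an element were not searched for, so a window without a match may still hold one. Counted by gene, TTTGAA was found in 7 of 11 genes that fell, in 2 of 3 that rose and in 15 of 20 that did not pass.

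The windows below run 5′ to 3′ on the strand of the gene, with TTTGAA and CCAAT on either strand in capitals. They are those of the 4 deepest falls and of PLK1, which rose, with CCNB2, which did not pass, for comparison.
CENPE, chr4:103198294-103198593, minus strand: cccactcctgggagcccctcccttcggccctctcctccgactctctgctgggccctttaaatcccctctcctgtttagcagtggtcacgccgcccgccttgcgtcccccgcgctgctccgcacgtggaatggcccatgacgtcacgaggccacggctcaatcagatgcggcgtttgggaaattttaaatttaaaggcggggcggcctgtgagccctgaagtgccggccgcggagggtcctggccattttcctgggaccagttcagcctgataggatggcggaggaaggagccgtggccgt
ASPM, chr1:197146620-197146919, minus strand: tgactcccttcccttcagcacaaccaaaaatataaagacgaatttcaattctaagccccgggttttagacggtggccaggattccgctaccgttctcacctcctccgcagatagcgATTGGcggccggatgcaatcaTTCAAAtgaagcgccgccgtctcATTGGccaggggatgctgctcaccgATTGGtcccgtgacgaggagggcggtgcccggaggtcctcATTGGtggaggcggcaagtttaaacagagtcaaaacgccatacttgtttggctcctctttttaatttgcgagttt
CENPF, chr1:214602945-214603244, plus strand: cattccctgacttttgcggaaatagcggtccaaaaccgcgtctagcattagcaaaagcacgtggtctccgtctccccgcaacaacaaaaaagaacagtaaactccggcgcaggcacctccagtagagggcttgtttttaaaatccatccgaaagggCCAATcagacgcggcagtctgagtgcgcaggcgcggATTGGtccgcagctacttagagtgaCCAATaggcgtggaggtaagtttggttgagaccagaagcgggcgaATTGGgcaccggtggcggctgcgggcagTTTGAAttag
KIF20A, chr5:138178862-138179161, plus strand: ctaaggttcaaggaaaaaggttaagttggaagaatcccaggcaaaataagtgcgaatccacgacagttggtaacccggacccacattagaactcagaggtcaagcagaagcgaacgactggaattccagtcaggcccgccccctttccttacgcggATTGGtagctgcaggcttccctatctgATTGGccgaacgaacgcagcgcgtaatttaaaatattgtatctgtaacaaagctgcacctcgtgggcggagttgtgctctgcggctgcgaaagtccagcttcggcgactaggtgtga
PLK1, chr16:23678639-23678938, plus strand: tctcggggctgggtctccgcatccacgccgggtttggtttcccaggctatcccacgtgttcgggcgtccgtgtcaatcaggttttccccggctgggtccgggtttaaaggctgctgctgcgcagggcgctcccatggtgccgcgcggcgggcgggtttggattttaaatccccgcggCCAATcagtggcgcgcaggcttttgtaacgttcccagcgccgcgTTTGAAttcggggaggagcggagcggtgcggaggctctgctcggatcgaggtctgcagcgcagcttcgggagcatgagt
CCNB2, chr15:59104896-59105195, plus strand: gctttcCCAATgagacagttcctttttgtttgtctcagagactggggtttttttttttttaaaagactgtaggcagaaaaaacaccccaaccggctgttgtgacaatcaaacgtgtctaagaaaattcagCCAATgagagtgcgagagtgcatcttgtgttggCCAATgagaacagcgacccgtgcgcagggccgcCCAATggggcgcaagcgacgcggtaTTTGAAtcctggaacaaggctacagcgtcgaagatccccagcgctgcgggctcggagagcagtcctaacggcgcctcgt
In PLK1 and in CCNB2 the homology region begins 29 bases before the start. PLK1 has 1 CCAAT box, 73 bases before the start, and CCNB2 has 4, the nearest 54 bases before it. ASPM holds 4 CCAAT boxes and CENPF 4, whereas the window of CENPE holds neither set of letters. In KIF20A 2 CCAAT boxes were found and no TTTGAA. In ASPM and CENPF the homology letters lie elsewhere, 113 bases before and 41 after the start.

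With YAPS127A the 39 genes did not move as a block. ASPM, CENPE and CENPF fell most, by factors of 1.65, 1.71 and 1.62, followed by KIF20A, KIF14 and TOP2A. CDK1, PLK1 and CDC25B rose by factors of 1.22, 1.25 and 1.19. With the median of neighbouring genes removed, as described below, none of these rises passed, and 7 of 11 falls did. The mitotic cyclins, the securin gene PTTG1 and the anaphase genes CDC20 and UBE2C did not pass. Changes of 2-fold or more were rare over all genes (619 of 19775), and none of the 39 reached that size.

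In limma with Benjamini-Hochberg adjustment over all probe sets (threshold 0.05), 11 of the 39 genes fell, 3 rose and 25 did not pass. Without empty vector replicate 4, 7 fell and 3 rose. The 14 calls are 35.9% of the genes, against 28.7% of all genes. Among genes with a mean log2 signal above 10, a limit chosen after seeing the data, 14 of 36 mitosis genes passed (38.9%), against 39% of all 5461, so the share that changed was at the background. There 30.6% of the mitosis genes fell and 8.33% rose, against 19.2% and 19.8% of all bright genes. Falls made up 28.2% of the 39, where 14.2% of all genes fell, and rises 7.69%, where 14.5% rose. The median difference was -0.11, beside 0.00 over all genes, and 30 of the 39 differences lay below 0. At single probe sets, 20 of 80 fell and 6 rose (32.5% changed, against 23.9% of all probe sets), and no gene had probe sets called in opposite directions. Of the genes that passed, CENPE, KIF20A, KIF4A, DLGAP5, PLK1 and CDC25B had only 1 probe set.

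**Figure D1:**
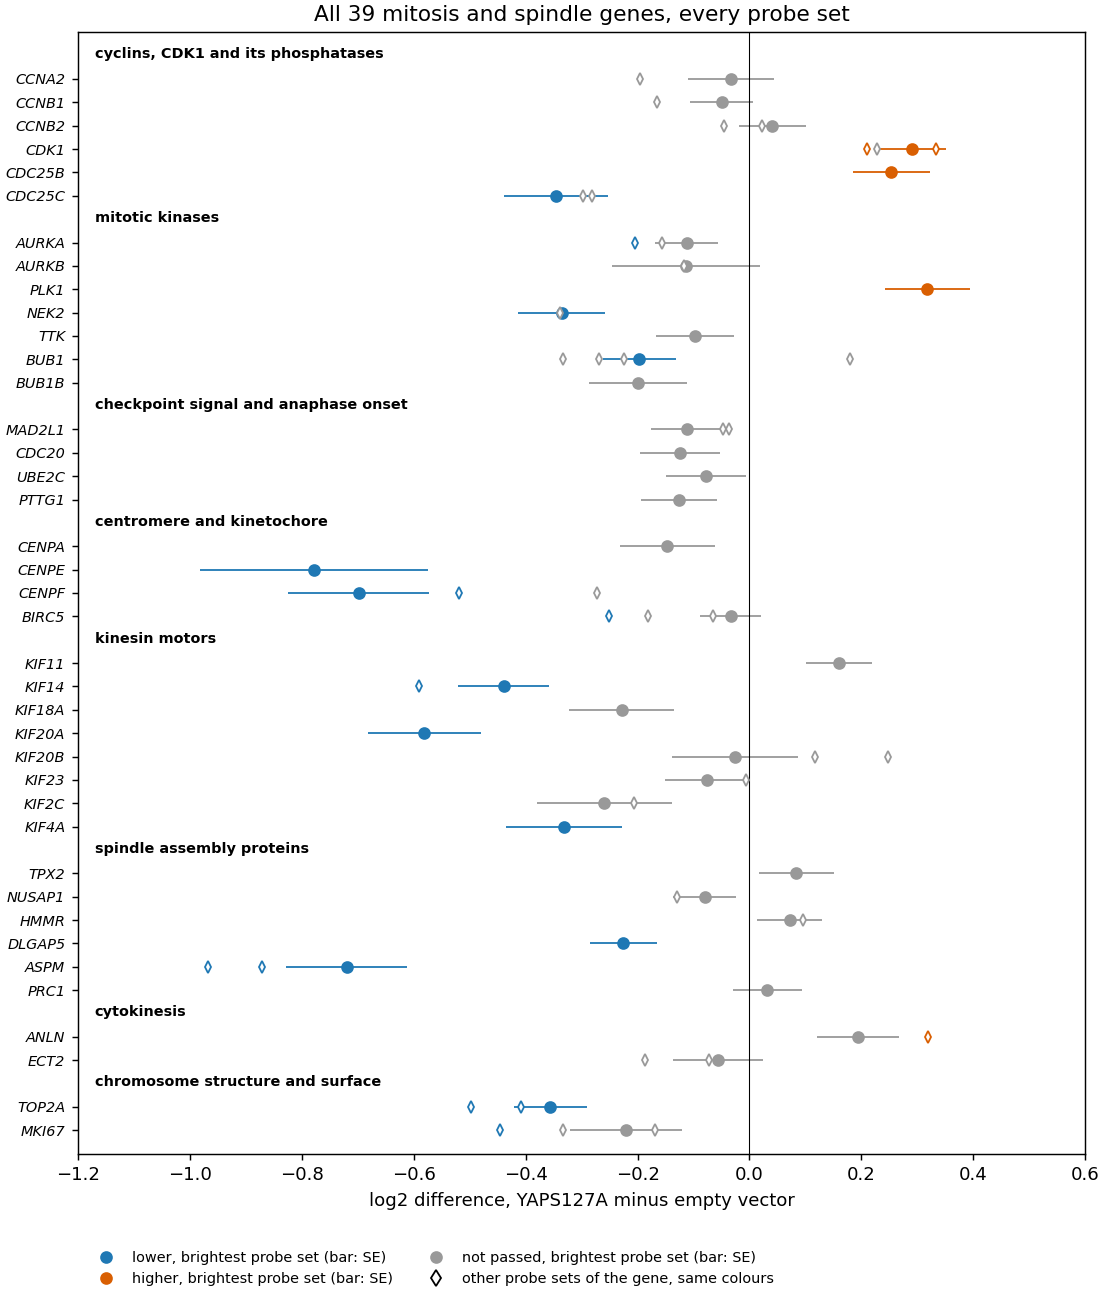
Log2 difference (YAPS127A minus empty vector) of every probe set of the 39 genes, grouped by role. Circles are brightest probe sets with SE bars, diamonds the other probe sets; blue fell, orange rose and grey did not pass. The deepest values are those of ASPM, CENPE and CENPF, and CDK1, PLK1 and CDC25B lie to the right.

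Cyclins, CDK1 and its phosphatases drive entry into mitosis. CDK1, the kinase at the centre of that switch, read 12.23, 12.29, 12.39 and 12.25 in the empty vector arrays and 12.61, 12.51, 12.60, 12.55 and 12.64 with YAPS127A. Every YAPS127A array was above every empty vector array. The difference was +0.29 (SE 0.06, adjusted p = 0.00411), and 3 of its 4 probe sets passed, all upward. CDC25B, a phosphatase that activates CDK1, read 11.51, 11.68, 11.68 and 11.70 against 12.03, 11.94, 11.84, 11.85 and 11.83. Its groups did not overlap either, and the difference was +0.25 (SE 0.07, adjusted p = 0.0184). Without empty vector replicate 1, its lowest array, the value was +0.21 and no longer passed (adjusted p = 0.0626).

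CDC25C, a phosphatase of the same family, went the other way. It read 10.31, 10.22, 9.97 and 10.28 with the empty vector and 9.83, 9.98, 9.65, 9.98 and 9.80 with YAPS127A, so that empty vector replicate 3 fell among the YAPS127A arrays. The difference was -0.35 (SE 0.09, adjusted p = 0.0179), and its other 2 probe sets lay lower by similar amounts without passing (-0.28 and -0.30). The call was lost without empty vector replicate 1 (-0.31, adjusted p = 0.0594) or replicate 4 (-0.32, adjusted p = 0.0571). The cyclins that bind CDK1 did not pass. CCNA2 was at -0.033, CCNB1 at -0.049 and CCNB2 at +0.041, with SEs of 0.06 to 0.08.

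Among 7 mitotic kinases 2 fell and 1 rose. PLK1, which acts at centrosomes, kinetochores and the cleavage site, read 10.05, 10.09, 9.93 and 10.00 in empty vector arrays and 10.32, 10.33, 10.15, 10.50 and 10.37 with YAPS127A. The groups were apart, with a difference of +0.32 (SE 0.08, adjusted p = 0.00905). NEK2, a kinase of centrosome separation, read 10.82, 10.73, 11.00 and 10.97 against 10.50, 10.45, 10.68, 10.49 and 10.59. All YAPS127A arrays were lower, by -0.34 (SE 0.08, adjusted p = 0.00765).

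BUB1, a kinase of the spindle checkpoint, which delays anaphase until chromosomes are attached, passed narrowly. It read 11.56, 11.40, 11.51 and 11.55 against 11.25, 11.25, 11.44, 11.31 and 11.28, with 1 overlapping array on each side. Its difference of -0.20 (SE 0.07, adjusted p = 0.0482) ranged from -0.23 to -0.18 as each array was left out, and passed only without empty vector replicate 2 or YAPS127A replicate 3 (adjusted p from 0.0231 to 0.125 over the 9 fits). The other 4 probe sets of BUB1 did not pass. AURKA, the kinase of spindle poles, lay lower in all YAPS127A arrays without passing at its brightest probe set (-0.11, adjusted p = 0.185), and passed at 1 of its other 2 (-0.20, SE 0.06, adjusted p = 0.0195). AURKB, of the chromosomal passenger complex, was at -0.11, BUB1B at -0.20 and TTK at -0.10, and none passed. BUB1B did without YAPS127A replicate 3 (-0.25, adjusted p = 0.0464).

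None of the 4 genes that carry the checkpoint signal to anaphase passed, at any probe set. PTTG1, whose product securin holds separase inactive until anaphase, had the lowest p-value of them. It read 13.43, 13.52, 13.57 and 13.42 with the empty vector and 13.45, 13.34, 13.21, 13.42 and 13.37 with YAPS127A. The arrays overlapped, at a difference of -0.13 (SE 0.07, adjusted p = 0.225). MAD2L1, the checkpoint protein that binds CDC20, was at -0.11, CDC20, an activator of the anaphase-promoting complex, at -0.12, and its ubiquitin-conjugating enzyme UBE2C at -0.078.

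The kinetochore genes CENPE and CENPF fell, in contrast to the other 2 centromere genes. CENPE, a kinesin that moves chromosomes to the spindle equator, read 10.58, 10.43, 10.48 and 10.49 in empty vector arrays. With YAPS127A it read 10.27, 10.13, 9.60, 9.55 and 9.04. All 5 were lower, but they spread widely, at 9.72 ± 0.49 (SD, n = 5) against 10.49 ± 0.07 (SD, n = 4), the largest SD of any of the 39 genes in that group. The difference was -0.78 (SE 0.20, adjusted p = 0.0152). CENPF, a large coiled-coil protein of the outer kinetochore, read 11.58, 11.33, 11.41 and 11.40 against 11.06, 10.94, 10.50, 10.74 and 10.43. The groups did not overlap and differed by -0.70 (SE 0.13, adjusted p = 0.00156). A second CENPF probe set, which is dim, fell by 0.52, and the third did not pass (-0.27, adjusted p = 0.196). CENPA, the histone that marks centromeres, was at -0.15 and did not pass. BIRC5, the passenger protein survivin, was at -0.034 at its brightest probe set and fell at 1 of its other 3 (-0.25, SE 0.07, adjusted p = 0.0149).

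Of the 8 kinesin motors 3 fell and none rose. KIF20A, a motor of the central spindle and of cytokinesis, read 11.51, 11.37, 11.15 and 11.60 with the empty vector and 10.58, 10.87, 10.92, 10.88 and 10.89 with YAPS127A. All YAPS127A arrays were lower, by -0.58 (SE 0.10, adjusted p = 0.00122), and replicate 1 was the lowest. KIF14, which also acts in cytokinesis, was nearly constant in empty vector cells, at 11.97, 12.00, 11.98 and 12.02. It read 11.77, 11.66, 11.43, 11.52 and 11.40 with YAPS127A, apart from the controls. The difference was -0.44 (SE 0.08, adjusted p = 0.00187), and its other probe set fell by 0.59.

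KIF4A, a chromosome-bound motor, read 11.66, 11.85, 12.02 and 11.75 against 11.79, 11.51, 11.32, 11.44 and 11.40. YAPS127A replicate 1 lay among the controls. Its difference of -0.33 (SE 0.10, adjusted p = 0.0368) ranged from -0.41 to -0.26 with each array left out, and passed only without empty vector replicate 1 or YAPS127A replicate 1 (adjusted p from 0.00626 to 0.106). KIF11, the motor that pushes spindle poles apart, was at +0.16 (adjusted p = 0.0758), and passed without empty vector replicate 3 (+0.20, adjusted p = 0.0352). KIF18A, which limits chromosome oscillation, was at -0.23 (adjusted p = 0.106) and passed without the same array (-0.32, adjusted p = 0.0149). KIF2C, a depolymerase of microtubules, was at -0.26, the midzone motor KIF23 at -0.077 and KIF20B at -0.025, and none of these passed.

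Among 6 genes of spindle assembly ASPM and DLGAP5 fell. ASPM, a protein of spindle poles known for its part in the growth of the brain, read 11.84, 11.77, 11.93 and 11.90 in empty vector cells and 11.45, 11.29, 11.04, 11.05 and 10.87 with YAPS127A. The groups were well apart, with a difference of -0.72 (SE 0.11, adjusted p = 0.000427). All 3 of its probe sets fell, the others by 0.97 and 0.87. DLGAP5, which stabilises microtubules near chromosomes, read 12.37, 12.37, 12.30 and 12.41 against 12.21, 12.17, 12.13, 12.15 and 12.03. It was lower in every YAPS127A array, by -0.23 (SE 0.06, adjusted p = 0.0169), and missed the threshold without empty vector replicate 4 (-0.21, adjusted p = 0.0535). TPX2, which activates AURKA, was at +0.084, HMMR, a microtubule-binding protein of the spindle, at +0.072, the bundling protein PRC1 at +0.032 and NUSAP1, which stabilises spindle microtubules, at -0.080, and none passed.

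The cytokinesis genes ANLN and ECT2 did not pass at their brightest probe sets. ANLN, a scaffold of the contractile ring, read 12.66, 12.59, 12.77 and 12.67 against 12.78, 12.82, 13.03, 12.77 and 12.93. The groups were just apart, at a difference of +0.19 (SE 0.07, adjusted p = 0.0799). At its other probe set the gene rose by 0.32 (SE 0.08, adjusted p = 0.0133). ECT2, which activates RhoA at the cleavage site, was at -0.055.

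TOP2A, the topoisomerase that untangles sister chromatids, fell at all 3 of its probe sets. The brightest read 13.03, 13.06, 13.18 and 13.05 with the empty vector and 12.87, 12.70, 12.67, 12.72 and 12.66 with YAPS127A. No array crossed between groups, and the difference was -0.36 (SE 0.07, adjusted p = 0.00181). The others fell by 0.50 and, at a dim probe set, by 0.41. MKI67, the proliferation marker that coats mitotic chromosomes, read 11.95, 11.90, 11.71 and 11.78 against 11.92, 11.61, 11.46, 11.65 and 11.44. YAPS127A replicate 1 lay with the controls, and the difference of -0.22 (SE 0.10) did not pass (adjusted p = 0.145). Without that replicate it was -0.30 and passed (adjusted p = 0.0210). Of its other 3 probe sets, 1 fell (-0.45, SE 0.13, adjusted p = 0.0313).

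**Figure D2:**
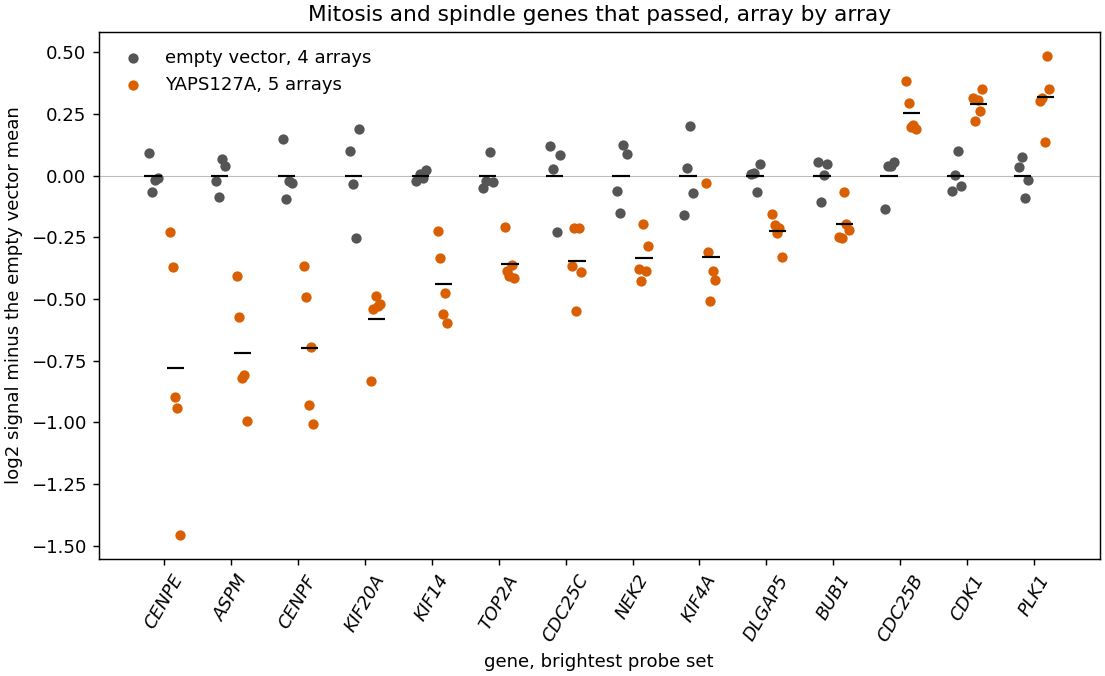
Log2 signal of each array minus the empty vector mean of the same gene, for the 14 genes that passed, ordered by difference. Points are arrays (grey empty vector, orange YAPS127A) and lines are group means. CENPE, ASPM and CENPF show wide spreads among YAPS127A arrays, whereas TOP2A, CDK1 and DLGAP5 are tighter.

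The YAPS127A arrays differed in how far these genes fell. Among the 11 genes that fell, replicate 1 was the highest YAPS127A array for 7 and replicate 5 the lowest for 6. Relative to the empty vector mean, the median over the 11 genes was -0.25 in replicate 1, -0.37 in replicate 2, -0.51 in replicate 3, -0.39 in replicate 4 and -0.42 in replicate 5. Replicate 1 also had the largest actin gap of its group, at 1.58, where the others had 0.888 to 1.07. With that gap as a covariate 14 of the 39 genes fell and 4 rose, and without the 2 arrays of largest gap, this one and empty vector replicate 3, 12 fell and 2 rose. In 9 of the 39 genes all YAPS127A arrays lay below all empty vector arrays, and in 4 they lay above (13.8% and 14.5% of all genes). The shares were larger among the 5461 genes with a mean log2 signal above 10, where 1156 lay below and 1209 above.

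Part of these differences was shared with neighbouring genes on the chromosome. As a measure of this, up to 50 neighbours of a gene in RefSeq order were reduced to their median difference. The neighbours of CDK1 (chromosome 10) lay higher by 0.30 and those of PLK1 (chromosome 16) by 0.32, as much as the genes themselves. On chromosome 1 the neighbours of NEK2, KIF14, CENPF and ASPM lay lower, at -0.29, -0.28, -0.25 and -0.23. The neighbours of CENPE, KIF4A and BUB1 hardly differed (-0.047, -0.035 and -0.020). Over the 39 genes, the difference of a gene and that of its neighbours correlated at r = 0.688, given as a description, since genes on 1 chromosome share neighbours.

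**Figure D3:**
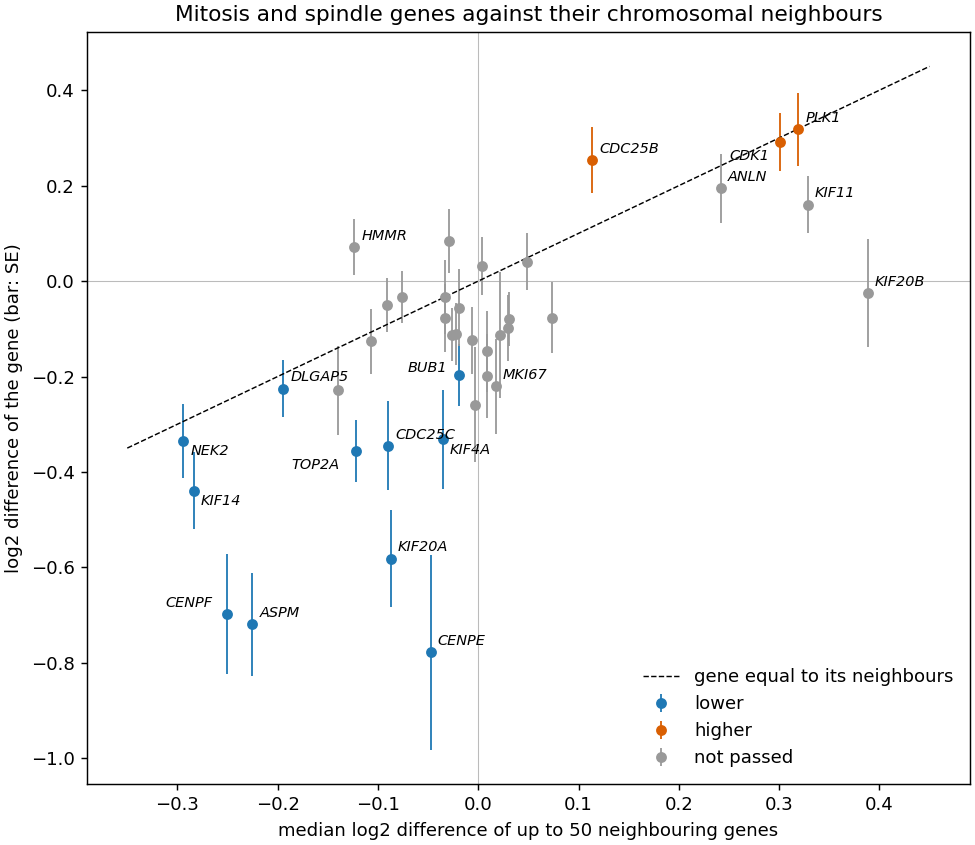
Log2 difference of each of the 39 genes (vertical, with SE bars) against the median difference of its chromosomal neighbours (horizontal); blue fell, orange rose and grey did not pass before the neighbours were taken into account. On the dashed line a gene equals its neighbours; CDK1 and PLK1 lie on it, whereas ASPM, CENPE, CENPF and KIF20A lie far below.

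With the neighbours' median removed on each array, 9 of the 39 genes were lower and 1 higher (33.6% of 19720 genes passed, 16.7% lower). ASPM (-0.49), KIF20A (-0.49), CENPE (-0.73), CENPF (-0.45), TOP2A (-0.23), KIF4A (-0.30) and CDC25C (-0.26) passed as before. The 3 rises did not: CDK1 was at -0.010 (adjusted p = 0.925), PLK1 at -0.00091 (adjusted p = 0.995) and CDC25B at +0.14 (adjusted p = 0.102). Nor did NEK2 (-0.041, adjusted p = 0.730), DLGAP5 (-0.031, adjusted p = 0.747), KIF14 (-0.16, adjusted p = 0.140) and BUB1 (-0.18, adjusted p = 0.0545). The removal made KIF20B (-0.41, adjusted p = 0.00767) and KIF11 (-0.17, adjusted p = 0.0435) lower, 2 kinesin genes of chromosome 10 whose neighbours were higher by 0.39 and 0.33, and HMMR higher (+0.20, adjusted p = 0.0152). A gene that does not follow its neighbours can gain a difference by this subtraction.

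Genes of mitosis outside the 39 were read from 7 lists by role. Among the 120 that had a named probe set there were 28 falls and 15 rises (35.8% changed, against 28.7% of all genes), with a median difference of -0.04. Falls made up 23.3% of the 120, where 14.2% of all genes fell and 14.5% rose. Over all genes with a mean log2 signal above 10, 39% changed, 19.2% downward and 19.8% upward. The 120 were not split by signal. With the neighbours' median removed 25 of the 120 were lower and 6 higher. In the same fit 33.6% of 19720 genes passed, 16.7% lower and 16.8% higher. Among the 120, 17 falls and 4 rises passed both times. FOXM1 and MYBL2, the activators named above and singled out after their values were seen, did not pass (+0.14, adjusted p = 0.294, and -0.18, adjusted p = 0.0977).

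Of 21 transcription factors and MuvB genes 4 fell and 3 rose. E2F5, which can take part in the DREAM complex, fell by 0.84, and LIN52, a MuvB subunit, by 0.42. RBL2, the p130 pocket protein of DREAM, rose by 0.57 and E2F4, its partner, by 0.31. Neighbours of RBL2 and E2F4 lay higher by 0.44 and 0.37, and neither passed with that removed. Of 13 genes of mitotic entry 4 rose and 1 fell. MASTL, the Greatwall kinase that restrains the phosphatase opposing CDK1, ran from 7.82 to 7.91 with the empty vector and from 8.90 to 9.10 with YAPS127A, a rise of 1.13 or 2.19-fold, and by 0.66 with the neighbours' median removed. PKMYT1, an inhibitory kinase of CDK1, rose by 0.62, and GTSE1 and BORA, which activates PLK1, by 0.30 each. ENSA, a substrate of Greatwall, fell (-0.31). ENSA, GTSE1 and BORA matched their neighbours and did not pass without them.

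Of 31 kinetochore and centromere genes 7 fell and 7 rose, with CENPL lower (-0.48) and CENPN, CENPM and CENPO higher by 0.46, 0.43 and 0.42. Of these 4, CENPO passed with the neighbours' median removed, though only 1 of its 2 probe sets had passed before. Among 10 genes of the passenger complex, the checkpoint and separase, the protectors of centromeric cohesion SGO1 (-0.62) and SGO2 (-0.42) and the kinase gene HASPIN (-0.31) fell. All 3 passed without their neighbours' median. SGO1 fell at 1 of its 2 probe sets and SGO2 at both. Of 13 condensin and cohesin genes NCAPG (-0.27), RAD21 (-0.22) and STAG1 (-0.24) fell. NCAPG did so at both of its probe sets, RAD21 at 1 of 2 and STAG1 at 1 of 3. NCAPG and STAG1 passed without their neighbours' median, whereas RAD21 turned to +0.052 (adjusted p = 0.552). Of 14 genes of the anaphase-promoting complex 4 fell and 1 rose. FBXO5, the inhibitor EMI1, fell from 11.04 ± 0.11 (SD, n = 4) to 10.18 ± 0.18 (SD, n = 5), by 0.87 or 1.82-fold. CDC23 (-0.40), the activator gene FZR1 (-0.36) and ANAPC11 (-0.25) fell, and CDC16 rose by 0.51. Of their probe sets, CDC23 and ANAPC11 passed at 1 of 2, FZR1 at 1 of 4 and CDC16 at all 3. As the mean of its probe sets CDC23 did not pass (-0.19, adjusted p = 0.121). With the neighbours' median removed FBXO5 (-0.50) and CDC23 (-0.32) passed, but FZR1, ANAPC11 and CDC16 did not (adjusted p = 0.130, 0.322 and 0.0517). Of 18 genes of centrosomes, spindles and cytokinesis 6 fell and none rose. They included CKAP5 (-0.66), which lengthens microtubules, the astrin gene SPAG5 (-0.45), the gamma-tubulin gene TUBG1 (-0.40) and the centriole gene STIL (-0.26), and all 4 passed with the neighbours' median removed.

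**Figure D4:**
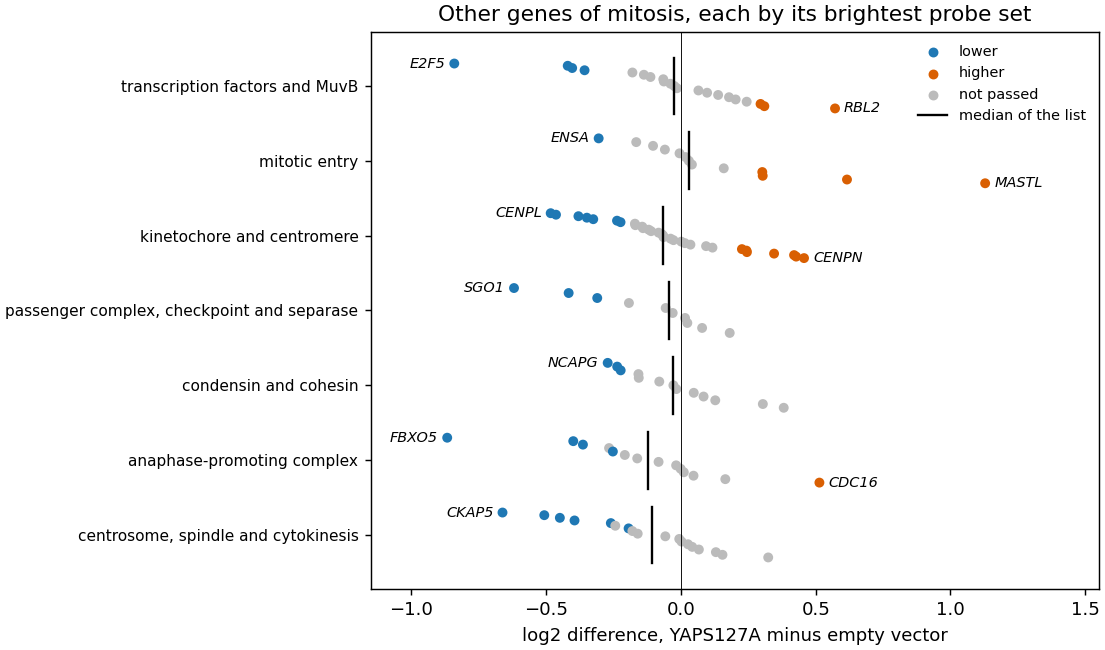
Log2 difference (YAPS127A minus empty vector) of 120 further genes of mitosis in 7 role lists, with the median of each list as a line. The outermost called genes are named; MASTL at +1.13 and FBXO5 at -0.87 are the extremes.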

How the data were processed

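The deposited log2 signals of the authors covered 54675 probe sets on 9 arrays of biotin-labelled RNA, per the labels. The scale was judged from the range of the values. Not given in the sources used here is how they were normalized, summarised and background-corrected. No further scaling was applied. There were 0 columns of other samples. Leaving out 62 control probe sets left 54613 to test. Of these the platform annotation gave 41091 a single gene, 1801 several and 11721 none. By gene ID, 41037 of the 41091 were matched to RefSeq (GRCh38.p14) and took its symbol.

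The comparison used lmFit and eBayes of limma 3.58.1 in R 4.3.3, 2-sided, without covariate, and p-values were adjusted over all probe sets. Errors beside differences are SEs. Neighbours were up to 50 genes above the median signal. The script was checked on simulated data. The 39 genes, the lists and the tests were chosen with earlier results of these data known. By the rule for named genes all 39 are described, with every array for those that passed, TOP2A, CENPF, MKI67 and the lowest p-value of each role. Of each further list all genes that passed are named if at most 5, otherwise the 4 with the lowest p-values. Plots came from matplotlib 3.10.9 (Python 3.11.15). Alternatives are named in the closing section.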

Additional observations from a re-analysis of the deposited data

Results flagged for a closer look

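In 7 of 78 groups (39 genes, 2 groups each) 1 array lay far from the others of its group. Chance alone gives such a value in about 1 in 20 groups. With YAPS127A, replicate 1 was low for CCNB1 (13.21, others 13.29 to 13.33) and for KIF20A (10.58, others 10.87 to 10.92), and high for TOP2A (12.87, others 12.66 to 12.72). In the same group replicate 4 was high for CCNB2 (12.45, others 12.32 to 12.35) and replicate 5 for BIRC5 (13.49, others 13.41 to 13.42). With the empty vector, replicate 1 was low for CDC25B (11.51, others 11.68 to 11.70) and replicate 3 high for KIF11 (12.47, others 12.31 to 12.33). The CDC25B call was lost without that replicate, and KIF11 passed without its replicate 3. KIF20A and TOP2A passed in all 19 alternatives.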

How the results depend on the processing

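Of the 14 calls, ASPM, CENPE, CENPF, KIF20A and TOP2A kept direction and threshold in all 19 alternatives, which were quantile normalization, median centring, dim probe sets left out, trend and robust eBayes, array weights, the mean of a gene's probe sets, the actin gap as covariate or its 2 largest arrays left out, the replicate block, the neighbours' median removed, and each array left out in turn. The count of called genes among the 39 stayed within 1.5 times of 14, from 10 (replicate block; neighbours' median removed; without empty vector replicate 4) to 18 (actin gap). The count of falls, 11, became 7 without empty vector replicate 4. The count of rises, 3, became 5 with dim probe sets left out, with the mean of probe sets or with trend and robust eBayes. It was 1 with the neighbours' median removed, where HMMR alone was higher and none of the original 3 passed. With each array left out the count of calls ranged from 10 to 14, among probe sets from 19 to 28 and among the 120 further genes from 33 to 44. Of the further genes 23 rose with dim probe sets left out and 24 with the mean of probe sets, instead of 15. The labels do not say whether the replicate numbers pair the arrays. Deviations of same-numbered arrays correlated from -0.25 to 0.04, which shows no shared deviation but cannot settle how the samples were handled. With the replicate block 17 probe sets passed instead of 26 (2 higher instead of 6), 17 of the further genes fell instead of 28, and CDC25B, BUB1, KIF4A and DLGAP5 were lost. Signs turned with the neighbours' median removed for CCNB1 (0.041), CCNB2 (-0.0079), CDK1 (-0.010), PLK1 (-0.00091), BIRC5 (0.042), KIF11 (-0.17) and ANLN (-0.048). Among genes that had not passed, CCNA2 turned with the actin gap (0.010) and without its 2 largest arrays (0.023), and ranged from -0.082 to 0.031 with each array left out. KIF20B turned with the actin gap (0.0100), the mean of probe sets (0.11), the replicate block (0.023) and without the 2 arrays of largest gap (0.031), and ranged from -0.091 to 0.042 with each array left out. ECT2 ranged from -0.089 to 0.0023 in the same way. The cause of these changes was not tested. The neighbours' median was removed only from the brightest probe set of each gene, so that alternative was not run for the count of single probe sets.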
